A study of Rattus norvegicus with 4 samples.

Results

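The type I interferon response genes are 49 genes that cells switch on after interferon binds its receptor, and all 49 were found by symbol in the deposited table of 17853 rat genes. Their polyadenylated RNA was sequenced from the brains of rats that had an intracerebral hemorrhage, in which blood escapes into brain tissue. The 4 groups were ipsilateral brain (the side of the bleeding) at 21 months, contralateral brain (the opposite side) at 21 months, ipsilateral brain at 13 months and contralateral brain at 13 months, with 1 library each. Every group came from rats with a hemorrhage, so the contralateral side is tissue of an injured brain and no library of rats without a bleeding was compared here. No strain, sex, hemorrhage model or time after the bleeding is named in the labels. RNA of 9 rat brains was pooled, without a statement of whether that number stands behind 1 library or all 4. With 1 library per group the values have no replicate error, and p-values below exist for the sides alone, with 2 libraries per side.

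Type I interferons are secreted proteins, chiefly the interferon alpha and beta families, that warn cells of viral nucleic acids and of tissue damage. Their receptor, built from Ifnar1 and Ifnar2, activates the kinases Jak1 and Tyk2, which phosphorylate STAT proteins, Stat2 among them. Together with Irf9 these form a complex that binds the interferon-stimulated response element (ISRE) in the promoters of its target genes. Interferon gamma, made by T and NK cells, acts on another element, the gamma-activated site (GAS), and induces part of the same genes. In the brain, microglia, astrocytes, endothelial cells and entering immune cells all can respond.

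Promoter sequences of the members were searched as a description. Since the ISRE is known from the promoters of such genes, a high share of it is no separate check of the label. RefSeq promoters of the rat build GRCr8, 250 bases before to 50 bases after the start of a gene, were at hand for 38 of the 49 members. The other 11 members are Ifit1, Ifit2, Isg15, Usp18, Mx2, Oas2, Ddx58, Dhx58, Zbp1, Ifitm1 and Rtp4. The ISRE core, searched as GAAA, any 2 bases and GAAA again on either strand with overlapping matches counted, was in the promoters of 26 of the 38 members, or 68.4%. It was in 1312 of all 33469 promoters of that table, or 3.92%. Within the last 100 bases before the start, 21 members held a whole match, against 1.28% of all promoters. The GAS, searched as TTC, any 3 bases and GAA, was in 10 of the 38 members, or 26.3%, and in 8.87% of all promoters. A match is a stretch of letters and was not shown to be bound in these tissues.

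Below are the 160 bases before the start of the 5 genes that held the ISRE core among the 6 with a promoter sequence and a level at least 2-fold higher in the contralateral library at 21 months than at 13 months. They are written 5′ to 3′ on the strand of the gene, in lower case with the core in capitals.
Ifit3 (chr1:241527166-241527325, plus strand): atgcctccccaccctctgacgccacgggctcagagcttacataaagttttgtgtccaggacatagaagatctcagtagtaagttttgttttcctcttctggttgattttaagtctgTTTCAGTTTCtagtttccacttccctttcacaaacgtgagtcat
Oasl2 (chr12:47383186-47383345, minus strand): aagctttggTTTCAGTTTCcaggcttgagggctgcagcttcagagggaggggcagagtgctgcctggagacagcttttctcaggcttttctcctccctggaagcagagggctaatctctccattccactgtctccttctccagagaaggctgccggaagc
Rsad2 (chr6:48788121-48788280, minus strand): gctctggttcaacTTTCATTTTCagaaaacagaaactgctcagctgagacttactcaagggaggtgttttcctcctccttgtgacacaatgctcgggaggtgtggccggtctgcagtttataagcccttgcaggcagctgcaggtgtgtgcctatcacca
Gbp4 (chr2:233978326-233978485, plus strand): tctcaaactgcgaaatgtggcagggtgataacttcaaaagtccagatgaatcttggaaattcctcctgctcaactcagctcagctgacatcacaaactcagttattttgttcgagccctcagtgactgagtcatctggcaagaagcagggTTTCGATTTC
Irf7 (chr1:205800024-205800183, minus strand): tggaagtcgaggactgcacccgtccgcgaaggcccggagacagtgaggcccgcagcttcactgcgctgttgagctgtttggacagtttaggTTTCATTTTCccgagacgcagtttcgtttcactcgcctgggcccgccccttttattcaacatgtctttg
In each of these 5 promoters the core lay on the strand opposite to the gene. It started 10 bases before the gene's start in Gbp4, 44 in Ifit3, 69 in Irf7, 147 in Rsad2 and 151 in Oasl2.

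The next 3 promoters show one of the genes with the highest side ratio at 13 months, a gene whose 2 matches overlap, and a member of the Ifitm cluster, in the same notation.
Gbp2 (chr2:234005567-234005726, plus strand): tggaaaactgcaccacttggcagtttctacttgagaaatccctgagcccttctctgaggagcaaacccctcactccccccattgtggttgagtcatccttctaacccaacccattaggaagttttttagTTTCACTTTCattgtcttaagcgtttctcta
Oas1a (chr12:41330306-41330465, plus strand): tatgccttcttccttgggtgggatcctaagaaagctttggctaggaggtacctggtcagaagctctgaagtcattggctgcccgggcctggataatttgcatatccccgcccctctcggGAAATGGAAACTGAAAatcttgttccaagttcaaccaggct
Ifitm3 (chr1:205541759-205541918, minus strand): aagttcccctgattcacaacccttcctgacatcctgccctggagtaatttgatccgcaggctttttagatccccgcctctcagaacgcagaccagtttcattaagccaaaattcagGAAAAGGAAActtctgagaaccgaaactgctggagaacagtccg
Oas1a held its matches in a single run of 16 capitals on the strand of the gene. Of the members 6 held 2 matches, namely Oas1a, Bst2, Ddx60, Ifi27, Ifi44 and Ifi44l.

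In 12 members no core was found in this window, among them Mx1, Oasl, Stat2, Irf9 and Irf1. For Irf1, a transcription factor that interferon gamma induces, the window held a GAS, in capitals here.
Irf1 (chr10:38417775-38417934, plus strand): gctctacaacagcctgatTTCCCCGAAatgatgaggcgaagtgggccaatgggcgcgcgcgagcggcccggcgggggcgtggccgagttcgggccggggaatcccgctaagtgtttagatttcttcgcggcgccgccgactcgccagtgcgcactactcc
This match started 142 bases before the gene's start.

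**Figure D1:**
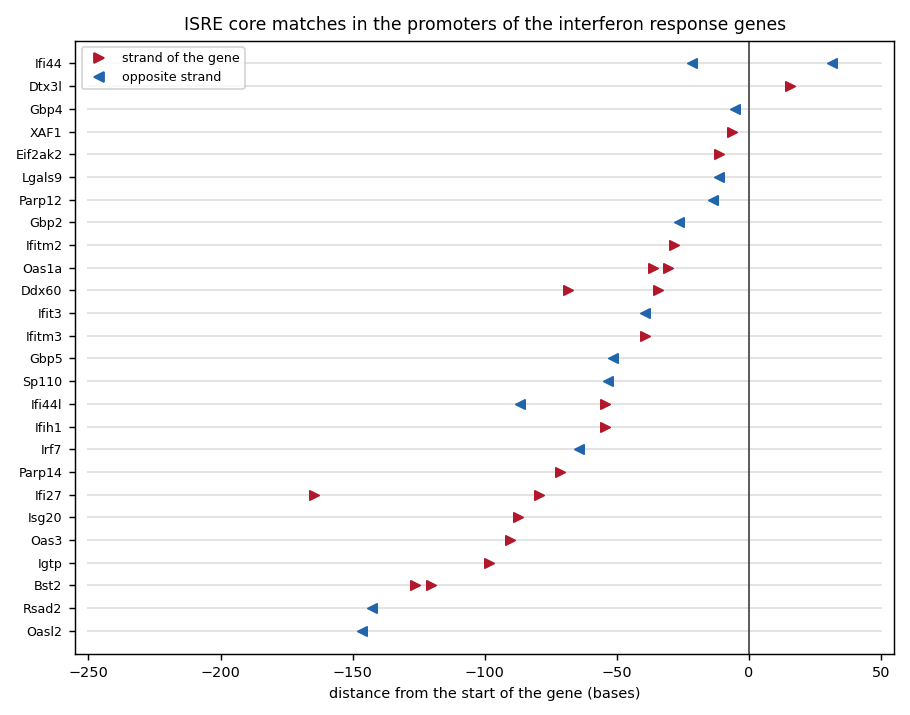
Position of each ISRE core in the promoters of the 26 members that held one (y axis, 1 gene a line), with the distance from the gene's start in bases on the x axis and the start at 0. Red triangles lie on the strand of the gene and blue ones on the opposite strand, and most matches fall within the last 100 bases before the start.

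Members also lie side by side in the genome. In GRCr8, Ifit2 and Ifit3, Gbp4 and Gbp2, Oas3 and Oas2, Oasl and Oasl2, Ifi44 and Ifi44l, Rsad2 and Cmpk2, and Parp9 and Dtx3l are neighbours with 0 protein-coding genes between them, and so are Ifitm2, Ifitm1 and Ifitm3. Many of these are close copies of each other. No source used here tells how reads that fit 2 copies were counted, so levels within the Ifit, Ifitm, Oas, Mx and Gbp families are uncertain in their split.

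Levels are given as RPKM, read counts scaled by gene length and by the size of the library, which can be set side by side between genes. The table holds no counts, so the depth behind them is unknown. Summed over the 49 members they came to 1052 RPKM ipsilaterally and 526 RPKM contralaterally at 21 months. At 13 months the sums were 858 RPKM ipsilaterally and 273 RPKM contralaterally. The sum was higher on the bleeding side at both ages, and higher in the contralateral library of 21 months than in that of 13 months. Averaged over the libraries, 47 members reached 1 RPKM and entered the counts below, among 12160 genes in all that did. Oas2 (1.48 and 0.46 RPKM ipsilaterally and contralaterally at 21 months, 1.88 and 0.17 RPKM at 13 months) and Oas3 (at most 0.34 RPKM) did not. Of the 47, Isg20 alone had a contralateral mean under 1 RPKM, so 1 member passed through its ipsilateral level.

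**Figure D2:**
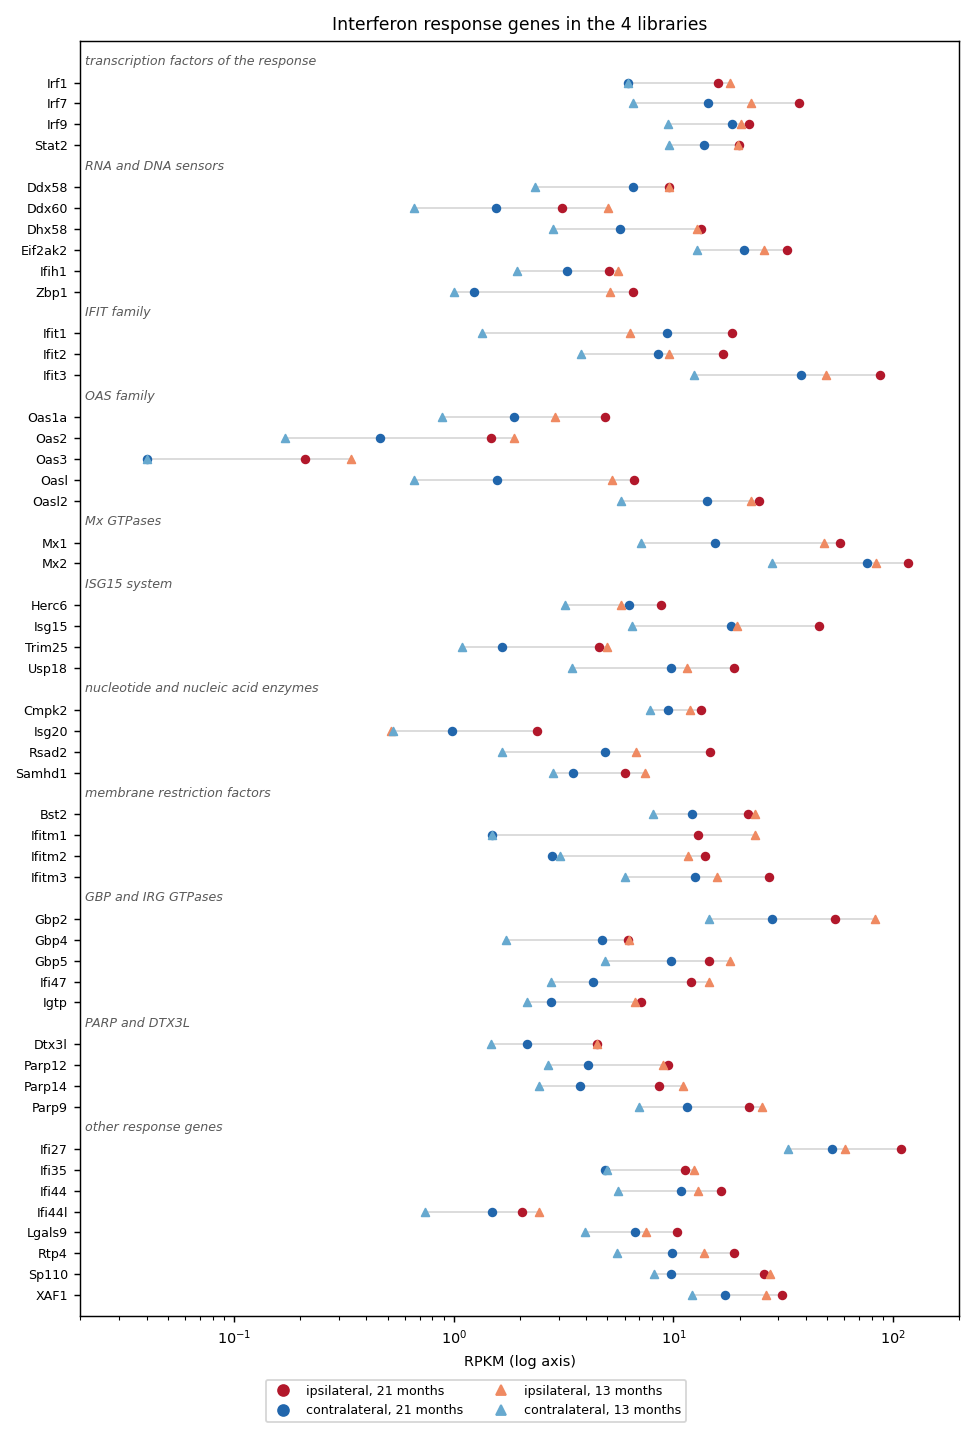
RPKM of each of the 49 members (y axis, grouped by role) in the 4 libraries on a log x axis, circles for 21 months and triangles for 13 months, red and orange for ipsilateral and blue for contralateral. For most genes both ipsilateral points lie right of both contralateral points, and the dark blue circle lies right of the light blue triangle.

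The sides were compared first, to ask how the members differed between the bleeding side and the opposite side at each age. At 21 months 21 of the 47 members were higher ipsilaterally by a log2 ratio of at least 1, that is 2-fold, after adding 1 RPKM to each value, where 5.61% of all 12160 genes were. At 13 months 39 of 47 were, where 7.19% of all genes were. The median log2 ratio of the members was 0.91 at 21 months, with a range of 0.25 to 2.48, and 1.44 at 13 months, with a range of -0.01 to 3.29. Over all genes the medians were 0.09 and 0.01. Past 2-fold at both ages were 20 members, at 13 months alone 19, at 21 months alone 1 and at neither 7. The share of all genes in each of these classes was not counted. In 44 of 47 members both ipsilateral libraries lay above both contralateral ones, where 34.4% of all genes did so. The exceptions were Ifit1, Herc6 and Isg20, and in all 3 the 21 month contralateral library lay above the 13 month ipsilateral one. Scaled to genes outside the mitochondrial genome, 13 members were past 2-fold at 21 months, and with 5 RPKM added in place of 1 there were 7 at 21 months and 17 at 13 months.

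Over both ages limma, with age as an additive term and Benjamini-Hochberg adjustment over all 12160 genes at 0.05, called 45 of 47 members as having risen on the ipsilateral side and 0 as having fallen, where 13.3% of all genes rose. Adjusted p-values in limma of those that rose ran from 2.5e-10 for Ifitm1 to 0.033 for Herc6. Those that did not pass were Cmpk2 (log2 change 0.50 ± 0.17, SE, adjusted p = 0.051 in limma, higher ipsilaterally at both ages) and Isg20 (0.39 ± 0.19, SE, adjusted p = 0.23 in limma). The ages stand in as replicates here, with 1 degree of freedom left for the error. To this 1 degree limma added a spread shared over all 12160 genes, worth 19.5 degrees of freedom with an SD of 0.173. The SEs of the members, from 0.169 to 0.237, thus rest mostly on that shared spread and not on the gene's own libraries. When the age term was dropped, 21 of 47 members rose. With no filter on low values 0 of 49 members and 0 of all genes passed in limma, although 42 of 49 members were higher at an unadjusted p under 0.05.

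Many markers of immune cells rose on the ipsilateral side, while of the other cells' markers 0 of 9 for neurons, 1 of 9 for astrocytes, 0 of 8 for oligodendrocytes and 0 of 6 for endothelial cells rose in limma, and 1 neuron marker, Nefm, fell. The astrocyte marker that rose was Gfap, a filament gene of reactive astrocytes, with 1225 RPKM ipsilaterally and 340.1 RPKM contralaterally at 21 months, and 1151 and 443 RPKM at 13 months. Marker genes of microglia summed to 209.7 RPKM ipsilaterally and 89.0 RPKM contralaterally at 21 months (9 genes) and to 239 and 93.8 RPKM at 13 months, and 5 of 8 tested rose in limma. Markers of blood monocytes and macrophages summed to 362 RPKM ipsilaterally and 50.3 RPKM contralaterally at 21 months (12 genes) and to 703 and 75.3 RPKM at 13 months, and 9 of 11 tested rose. Of these sums Lyz2 alone made 250 and 30.1 RPKM at 21 months and 548 and 56.1 RPKM at 13 months. The median log2 side ratio of the 11 tested genes was 1.63 at 21 months and 2.05 at 13 months. Ccr2, a receptor of blood monocytes, was at most 0.67 RPKM and was listed at 0 contralaterally at 21 months. Markers of T and NK cells summed to 32.6 and 8.17 RPKM at 21 months and to 52.7 and 7.86 RPKM at 13 months (13 genes), 12 of them under 1 RPKM in both contralateral libraries. In these sums Cd4 had 18.97 and 5.87 RPKM at 21 months and 14.49 and 5.40 RPKM at 13 months. Cd8a had 8.32 and 0.25 RPKM, and 21.79 and 0.51 RPKM. No other gene of the list passed 5.89 RPKM, the value of Cd2 ipsilaterally at 13 months. Cd3d, Cd3e and Cd3g were at most 1.6 RPKM, and Nkg7, Gzmb, Prf1, Klrd1 and Ncr1 at most 0.65 RPKM. Neutrophil markers summed to 39.2 and 9.34 RPKM at 21 months and to 64.6 and 5.53 RPKM at 13 months (9 genes). The 6 B and plasma cell genes found by their listed symbols stayed under 1 RPKM in every library. Outside these 6, Igj, the joining chain gene of plasma cells, had 2.68 and 5.40 RPKM at 21 months and 2.51 and 1.13 RPKM at 13 months. Igkc, an immunoglobulin gene, had 24.9 and 27.7 RPKM at 21 months and 2.65 and 2.55 RPKM at 13 months. In bulk tissue, more cells of a type and more RNA per cell cannot be told apart, and the part of these cells in the members' side ratios was not tested.

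**Figure D3:**
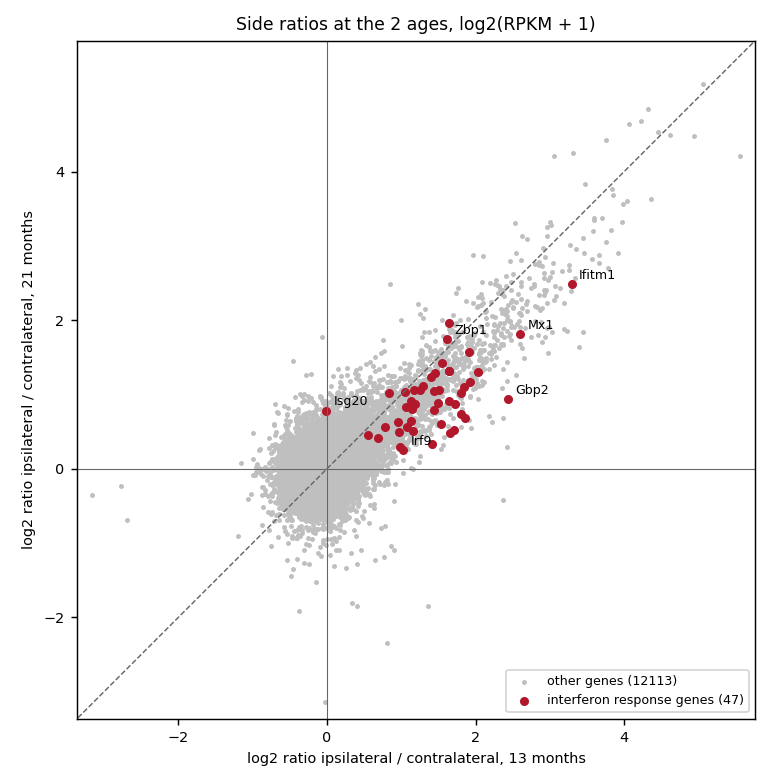
Each point is 1 gene, placed by its side ratio, ipsilateral over contralateral on the log2 scale with 1 RPKM added (x axis, 13 months; y axis, 21 months). The 47 members (red) lie in the upper right except Isg20, and 43 of them lie below the dashed line of equal ratios.

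Ligands were nearly unseen while receptors were present. Of 12 interferon genes listed, the 3 found in the table were at or near 0: Ifnb1, which encodes interferon beta, was listed at 0 in 3 libraries and at 0.13 RPKM ipsilaterally at 13 months. Ifng, which encodes interferon gamma, was at 0.06 RPKM ipsilaterally at 21 months, at 0.14 RPKM ipsilaterally at 13 months and at 0 contralaterally at both ages. Ifne reached 0.05 RPKM in 1 library. Of 6 receptor genes 5 were tested and all 5 rose in limma. Ifnar1 had 18.9 RPKM ipsilaterally and 11.1 RPKM contralaterally at 21 months, and 20.1 and 11.7 RPKM at 13 months. Ifnar2 had 5.37 and 2.66 RPKM at 21 months and 5.47 and 2.80 RPKM at 13 months. Both receptor genes were thus close to equal at the 2 ages on either side. Ifngr1 and Il10rb, subunits of the interferon gamma and lambda receptors, had the highest fitted log2 changes of the receptors, 1.47 and 1.60. Ifnlr1, the receptor gene that was not tested, had 0.60 RPKM ipsilaterally and 0.59 RPKM contralaterally at 21 months. At 13 months it had 0.39 and 0.31 RPKM.

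Of the kinases and Stats behind the receptors, Tyk2 (log2 change 0.70) and Stat3 (0.90) rose in limma, whereas Jak1 (0.24) and Jak2 (0.32) did not pass. Stat2, a member, had 19.8 RPKM ipsilaterally and 13.8 RPKM contralaterally at 21 months, and 19.6 and 9.54 RPKM at 13 months. Irf9, the DNA-binding part of the complex that Stat2 joins, had 22.2 and 18.5 RPKM at 21 months and 20.3 and 9.45 RPKM at 13 months. In Stat2 and Irf9 alike the ipsilateral libraries of both ages lay within a narrow range, and the contralateral library was higher at 21 months. Irf9 had the lowest side ratio of the 47 tested members at 21 months, 0.25, and a ratio of 1.02 at 13 months.

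Irf7, the factor that amplifies interferon production, had 37.4 RPKM ipsilaterally and 14.4 RPKM contralaterally at 21 months, and 22.5 and 6.57 RPKM at 13 months. Irf1 had 15.92 and 6.20 RPKM at 21 months and 17.99 and 6.23 RPKM at 13 months. Irf7 was higher at 21 months on both sides, and Irf1 was not. All 4 factors among the members rose in limma, Irf7 by 1.48 ± 0.17 and Irf1 by 1.31 ± 0.17 (SE, 2 libraries per side). Among other Irf genes Irf8 (1.99), a factor of myeloid cells, Irf5 (0.75) and Irf2 (0.56) rose, and Irf3 (0.43) did not pass.

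All 6 sensors of foreign nucleic acids among the members rose in limma. Ddx58, which encodes the RNA sensor RIG-I, had 9.56 RPKM ipsilaterally and 6.55 RPKM contralaterally at 21 months, and 9.55 and 2.35 RPKM at 13 months. Its ipsilateral level was the same at both ages to within 0.01 RPKM, and the log2 side ratio was 0.48 at 21 months and 1.66 at 13 months. Ifih1, which encodes the RNA sensor MDA5, had 5.08 and 3.27 RPKM at 21 months and 5.58 and 1.94 RPKM at 13 months. Dhx58, a regulator of both, had 13.4 and 5.71 RPKM at 21 months and 12.8 and 2.83 RPKM at 13 months. Ddx60, a helicase linked to RIG-I signalling, had 3.11 and 1.55 RPKM at 21 months and 5.03 and 0.66 RPKM at 13 months. Zbp1, a sensor of Z-form nucleic acid that can trigger cell death, had 6.51 and 1.24 RPKM at 21 months and 5.15 and 1 RPKM at 13 months. Unlike the RNA helicases, Zbp1 had a slightly larger side ratio at 21 months, 1.75, than at 13 months, 1.62. Eif2ak2, the kinase PKR that stops translation, had side ratios of 0.62 and 0.95, and stayed under 2-fold at both ages.

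Among sensor and adaptor genes outside the 49, 8 of 12 tested rose in limma. The highest were Tlr8 (log2 change 1.70) and Tlr7 (1.62), endosomal RNA receptors, and the lowest Adar (0.04) and Tbk1 (0.14), which did not pass. Of the negative regulators 4 of 7 rose, with Socs3 (3.05) and Ptpn6 (2.39) highest and Ptpn11 (-0.15) and Pias4 (0.18) lowest. Socs1 did not reach a mean of 1 RPKM.

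The 3 IFIT genes, whose products bind viral RNA and block its translation, rose in limma. Ifit3 had 86.8 RPKM ipsilaterally and 38.2 RPKM contralaterally at 21 months, and 49.7 and 12.4 RPKM at 13 months. Ifit1 had 18.6 and 9.37 RPKM at 21 months and 6.33 and 1.34 RPKM at 13 months. Ifit2 had 16.8 and 8.46 RPKM at 21 months and 9.49 and 3.79 RPKM at 13 months. Each was higher in the 21 month library than in the 13 month library on both sides, and Ifit1 was higher in the 21 month contralateral library than in the 13 month ipsilateral one.

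Mx1 and Mx2, GTPases that block incoming viruses, differed in level and in side ratio. Mx2 had 116 RPKM ipsilaterally and 76.2 RPKM contralaterally at 21 months, and 83.3 and 28.1 RPKM at 13 months. Mx1 had 56.9 and 15.5 RPKM at 21 months and 48.3 and 7.12 RPKM at 13 months. The side ratio was 1.81 for Mx1 and 0.61 for Mx2 at 21 months, and 2.60 for Mx1 and 1.53 for Mx2 at 13 months. Mx1 rose by 2.21 ± 0.19 on the log2 scale and Mx2 by 1.07 ± 0.20 (SE, 2 libraries per side, limma).

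The OAS genes encode enzymes that make the second messenger of RNase L, and OASL proteins are their relatives. Oasl2 had 24.4 RPKM ipsilaterally and 14.3 RPKM contralaterally at 21 months, and 22.6 and 5.75 RPKM at 13 months. Oasl had 6.63 and 1.57 RPKM at 21 months and 5.27 and 0.66 RPKM at 13 months, and Oas1a had 4.88 and 1.88 RPKM at 21 months and 2.90 and 0.88 RPKM at 13 months. All 3 rose in limma, and of these Oas1a alone had the same side ratio at both ages to within 0.03 (1.03 and 1.05).

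Isg15, a ubiquitin-like protein that is attached to others, had 46.1 RPKM ipsilaterally and 18.3 RPKM contralaterally at 21 months, and 19.5 and 6.48 RPKM at 13 months. Usp18, the protease that removes Isg15 and damps receptor signalling, had 18.9 and 9.78 RPKM at 21 months and 11.5 and 3.44 RPKM at 13 months. Herc6, a ligase of the Isg15 system in rodents, had 8.74 and 6.28 RPKM at 21 months and 5.77 and 3.22 RPKM at 13 months. Trim25, a ligase that acts on RIG-I, had 4.56 and 1.66 RPKM at 21 months and 4.97 and 1.09 RPKM at 13 months. Isg15, Usp18 and Herc6 were higher at 21 months on both sides, and Trim25 only on the contralateral side.

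Among enzymes of nucleotides and nucleic acids, Rsad2, which encodes viperin, had 14.7 RPKM ipsilaterally and 4.87 RPKM contralaterally at 21 months, and 6.77 and 1.65 RPKM at 13 months. Its neighbour Cmpk2 had 13.3 and 9.43 RPKM at 21 months and 11.9 and 7.79 RPKM at 13 months. Samhd1, which degrades deoxynucleotides, had 6.01 and 3.48 RPKM at 21 months and 7.38 and 2.83 RPKM at 13 months. Isg20, an exonuclease, had 2.40 and 0.98 RPKM at 21 months and 0.52 and 0.53 RPKM at 13 months, with side ratios of 0.78 and -0.01 at these ages. Rsad2 and Samhd1 rose in limma.

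The membrane restriction factors held the steepest side ratio. Ifitm1 had 13.0 RPKM ipsilaterally and 1.50 RPKM contralaterally at 21 months, and 23.5 and 1.50 RPKM at 13 months, with log2 ratios of 2.48 and 3.29. It rose by 2.89 ± 0.19 (SE, 2 libraries per side, limma). Ifitm2 had 13.9 and 2.81 RPKM at 21 months and 11.6 and 3.03 RPKM at 13 months. Ifitm3 had 27.2 and 12.6 RPKM at 21 months and 15.8 and 6.04 RPKM at 13 months. The 3 neighbours, all of which hinder virus entry, therefore differed in their age pattern: contralateral Ifitm3 was higher at 21 months, while contralateral Ifitm1 and Ifitm2 were not. Bst2, which encodes the virus tether tetherin, had 21.7 and 12.1 RPKM at 21 months and 23.5 and 8.03 RPKM at 13 months.

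The GBP and IRG genes encode GTPases of defence inside the cell that interferon gamma induces strongly, and all 5 rose in limma. Gbp2 had 54.4 RPKM ipsilaterally and 27.9 RPKM contralaterally at 21 months, and 82.9 and 14.5 RPKM at 13 months. Its side ratio was 0.94 at 21 months and 2.44 at 13 months, the largest difference between the ages among the members. Gbp5 had 14.5 and 9.77 RPKM at 21 months and 18.1 and 4.87 RPKM at 13 months, and Gbp4 had 6.23 and 4.73 RPKM at 21 months and 6.26 and 1.73 RPKM at 13 months. Ifi47 had 12.04 and 4.30 RPKM at 21 months and 14.5 and 2.78 RPKM at 13 months, while Igtp had 7.13 and 2.77 RPKM at 21 months and 6.71 and 2.16 RPKM at 13 months. In Gbp2, Gbp4, Gbp5 and Ifi47 the ipsilateral library was lower and the contralateral one higher at 21 months, though for ipsilateral Gbp4 by 0.01 on the log2 scale.

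The Parp genes and Dtx3l encode ADP-ribosyltransferases and their ligase partner. Parp9 had 22.0 RPKM ipsilaterally and 11.6 RPKM contralaterally at 21 months, and 25.2 and 6.96 RPKM at 13 months. Parp14, an enzyme linked to macrophage activation, had 8.60 and 3.74 RPKM at 21 months and 11.04 and 2.45 RPKM at 13 months. Parp12 and Dtx3l had fitted log2 changes of 1.24 and 0.98, and all 4 rose in limma.

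The 8 other members rose in limma as well. Ifi27 had the highest level of these, 107.9 RPKM ipsilaterally and 52.9 RPKM contralaterally at 21 months, and 60.2 and 33.4 RPKM at 13 months. Sp110, a nuclear body protein, had 25.8 and 9.73 RPKM at 21 months and 27.4 and 8.13 RPKM at 13 months. XAF1, which promotes cell death, had 31.0 and 17.1 RPKM at 21 months and 26.4 and 12.1 RPKM at 13 months. Ifi27 was the 1 member past 2-fold between the sides at 21 months and not at 13 months (1.02 and 0.83). The others, Ifi35, Ifi44, Ifi44l, Lgals9 and Rtp4, had fitted log2 changes of 0.64 to 1.12.

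Of 19 tested interferon targets outside the 49, 14 rose in limma, with Epsti1 (1.88) and Lgals3bp (1.69) highest and Gbp1 (0.00) and Tdrd7 (0.05) lowest. Of MHC class I and immunoproteasome genes 6 of 6 tested rose, with Psmb9 (1.52) and Tap1 (1.27) highest and Psmb10 (0.84) and B2m (1.14) lowest.

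The ages were compared next, on each side, to ask whether the level itself differed in older rats. Contralaterally 43 of 47 members were higher at 21 months than at 13 months, where 40.8% of all genes were. The median log2 ratio of 21 to 13 months was 0.64 over the members and -0.03 over all genes. At least 2-fold higher were 11 members, where 0.206% of all genes were, 25 genes in all. With 5 RPKM added in place of 1 there were 4 members among 5 genes, and with 0.1 RPKM added there were 16 members among 48 genes. The 11 members with 1 RPKM added were Ifit1 (2.15), Ifit3 (1.55), Mx2 (1.41), Isg15 (1.37), Usp18 (1.28), Oasl2 (1.18), Ddx58 (1.17), Rsad2 (1.15), Gbp4 (1.07), Mx1 (1.02) and Irf7 (1.02). Members made up 32 of the 122 genes, 1% of those tested, with the highest contralateral ratio of the ages. Ifitm1 had the same value at both ages, and Ifitm2 (-0.08), Ifi35 (-0.02) and Irf1 (-0.01) were lower at 21 months. These are ratios of single libraries with no replicate check, and a difference between 2 pools of rats cannot be told apart from a difference of age.

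Ipsilaterally 31 of 47 members were higher at 21 months, where 53.9% of all genes were, with a median log2 ratio of 0.12 over the members and 0.03 over all genes. At least 2-fold higher were 4 members, Ifit1 (1.42), Isg15 (1.20), Isg20 (1.16) and Rsad2 (1.02), where 0.321% of all genes were, and 2 members were with 5 RPKM added. The lowest were Ifitm1 (-0.81), Gbp2 (-0.60) and Ddx60 (-0.55). On both sides 30 members were higher at 21 months, a pattern whose share over all genes was not counted. In 13 members the contralateral library was higher and the ipsilateral one lower at 21 months, where 19.9% of all genes showed this.

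The side ratio was smaller at 21 months than at 13 months in 43 of 47 members, where it was smaller in 44.3% of all genes. The median difference was -0.45 over the members and 0.05 over all genes, and -0.24 over the members with 5 RPKM added. The exceptions were Isg20 (0.79), Ifitm2 (0.32), Ifi27 (0.18) and Zbp1 (0.12). This difference and the ratios of the ages are made from the same 4 libraries and are not separate evidence. Set side by side, linear ratios of RPKM over the 49 members had medians of 1.85 for 21 over 13 months contralaterally and 1.08 ipsilaterally.

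**Figure D4:**
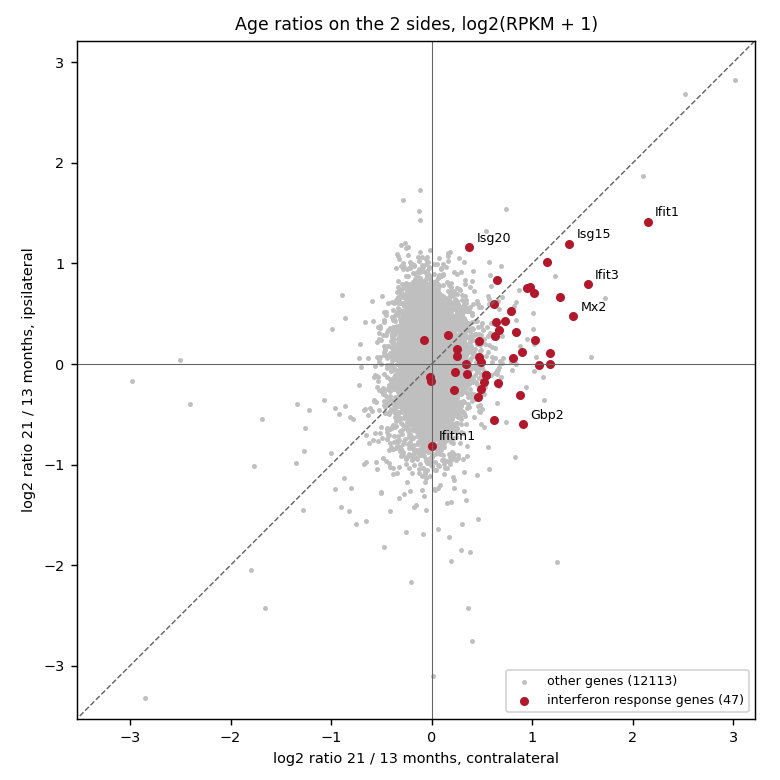
Each point is 1 gene, with its log2 ratio of 21 to 13 months (1 RPKM added) on the contralateral side on the x axis and on the ipsilateral side on the y axis. The 47 members (red) lie right of 0 contralaterally but for 4, out to Ifit1 at 2.15, and spread from -0.81 to 1.42 ipsilaterally.

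Markers of other cells were set beside the contralateral difference of the ages. Microglia markers summed to 89.0 RPKM at 21 months and 93.8 RPKM at 13 months contralaterally, and monocyte and macrophage markers to 50.3 and 75.3 RPKM, of which Lyz2 alone made 30.1 and 56.1 RPKM (median log2 ratio of that list -0.05). T and NK cell markers summed to 8.17 and 7.86 RPKM, of which Cd4 alone made 5.87 and 5.40 RPKM. The median log2 ratio of the T and NK cell list was -0.02 over 4 tested genes, 2 of which were above 0. Of its 13 genes 12 were under 1 RPKM in both contralateral libraries. Ifng was listed at 0 in both of them. Neutrophil markers summed to 9.34 and 5.53 RPKM, in which S100a9 had 4.53 and 2.11 RPKM and S100a8 2.71 and 1.23 RPKM. Astrocyte markers summed to 1497 and 1675 RPKM and neuron markers to 1691 and 1730 RPKM. Of these lists the neutrophil one had the highest median log2 ratio, 0.27 over 4 tested genes, below the 0.64 of the members. Among single genes, the immunoglobulin gene Igkc had 27.7 RPKM at 21 months and 2.55 RPKM at 13 months contralaterally. Their part in the result was not tested. Upstream genes were close to equal contralaterally, with median log2 ratios of 0.00 for the receptors, 0.02 for the Jak and Stat genes and -0.01 for sensors and adaptors. Of the 19 other interferon targets all 19 were higher at 21 months contralaterally, with a median of 0.35.

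**Figure D5:**
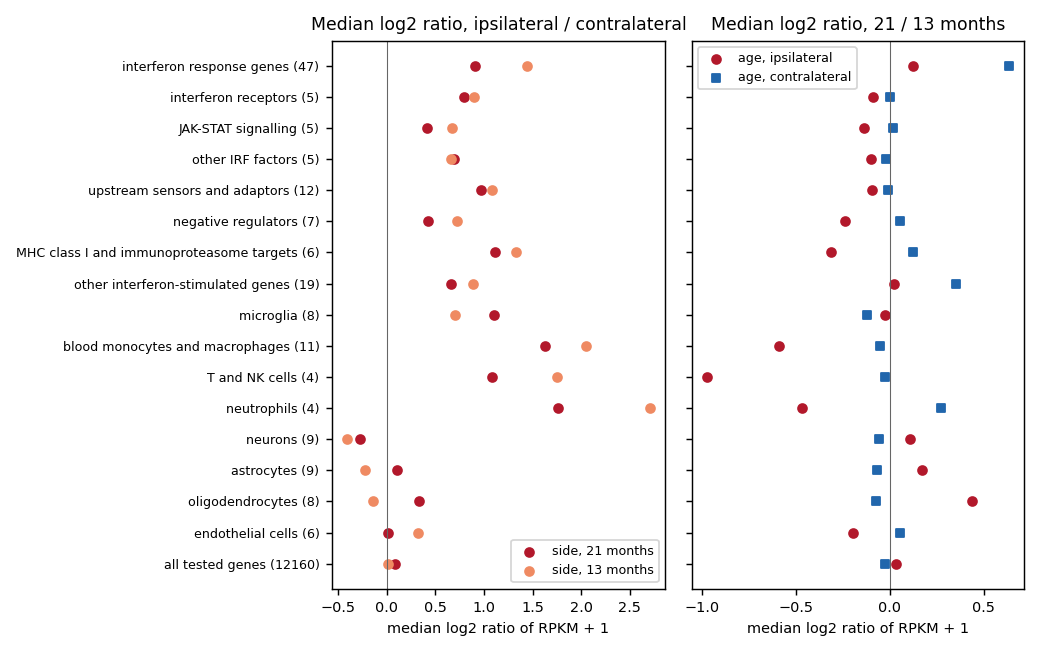
Median log2 ratio of RPKM (1 RPKM added) over the tested genes of each list, whose number stands in brackets, for ipsilateral over contralateral at both ages (left) and for 21 over 13 months on both sides (right). Contralaterally the members have the highest median of the ages, 0.64, followed by the other interferon targets at 0.35.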

How the data were processed

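The labels give 4 samples in 4 groups, 1 library each, and columns were matched to samples by age and side code. The authors deposited RPKM per gene, given to 2 decimals. Cutadapt, TopHat2 and edgeR are named in the submitters' processing notes, without versions, together with the human build GRCh38, although the gene IDs are those of rat, so no coordinates were taken from the table. The libraries were directional, per the labels' protocols; no source used here tells whether counting used the strand. The table gives no read counts, so the depth is unknown. RPKM summed to 402100 and 388632 in the ipsilateral and contralateral libraries of 21 months and to 395490 and 391306 in those of 13 months, and mitochondrial genes took 20.6%, 24.1%, 18.5% and 23.3% in the same order.

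Members were found by symbol, ignoring case. Values were analysed as log2(RPKM + 1), which understates the change of low genes, for genes that averaged 1 RPKM or more. Single libraries were compared as log2 ratios, counted past 1, with no test. The side effect was fitted with limma 3.58.1 in R 4.3.3 with eBayes, two-sided. The method was also run on simulated data in which every gene had the same spread. That run cannot show how well the calls hold in the real libraries. Lists used the most abundant entry of a repeated symbol. Promoters are from RefSeq, matched by symbol or synonym. All members were named; of each pathway list the 2 highest and 2 lowest were, and further genes were chosen after their values were seen. Alternatives were another pseudocount, filter, scaling, treatment of shared symbols, design and variance model. Members, lists and tests were chosen with earlier results of these data known, and the values of the side comparison overlap with those results. Values of some pathway genes are not reported here. A planned comparison of protein sequences was not made.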

Additional observations from a re-analysis of the deposited data

Results flagged for a closer look

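Every value here is a difference of log2 ratios between single libraries, and none of these differences was tested. Isg20 was singled out because its side ratio had opposite signs at the ages, 0.78 at 21 months and -0.01 at 13 months, a difference of 0.79 at levels of at most 2.40 RPKM. The other genes had ratios of 21 to 13 months of opposite sign on the sides. In the figures that follow, the contralateral ratio of the ages is subtracted from the ipsilateral one.

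Among GTPases the difference was -1.50 for Gbp2, -1.18 for Gbp5, -1.08 for Gbp4 and -0.74 for Ifi47. Of the RNA sensors, Ddx60 had -1.17 and Ifih1 -0.65. Parp9 had -0.84 and Parp14 -0.79, Ifi44l -0.69, Bst2 -0.65, Samhd1 -0.48, Trim25 -0.45 and Sp110 -0.32. Each of these 13 was lower ipsilaterally and higher contralaterally at 21 months. That is 27.7% of the 47 tested members, where 19.9% of all genes showed the pattern. Ipsilateral ratios of the ages ran from -0.60 for Gbp2 to -0.01 for Gbp4, with Sp110 at -0.08 and Trim25 at -0.10. Ifitm2, at 0.32, was the 1 gene with the reverse pattern, higher ipsilaterally and lower contralaterally at 21 months.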

How the results depend on the processing

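With 5 RPKM added in place of 1, past 2-fold between the sides were 7 members at 21 months and 17 at 13 months, with medians of 0.67 and 0.84; past 2-fold between the ages were 4 contralaterally and 2 ipsilaterally, the median difference of the side ratio was -0.24, and 28 members rose in limma. With 0.1 RPKM added the median at 13 months was 1.61. Scaling to genes outside the mitochondrial genome left 13 members past 2-fold at 21 months. In limma 21 members rose without the age term and 0 with no filter on low values. Over all genes, 1618 rose and 99 fell in the fit reported; 809 and 16 did with 5 RPKM added, 841 and 40 with a mean of at least 5 RPKM, 1190 and 27 without the age term, 1538 and 247 with median-ratio scaling, and 0 and 0 with no filter, where 2641 and 719 had an unadjusted p under 0.05. These changes follow from the settings themselves or had a cause that was not tested. No sign of a member past 2-fold or called was reversed under any alternative run. With a filter on the contralateral mean alone, 46 members were tested and 0 of their limma calls were lost. The members higher at 21 months contralaterally were 43 of 47 with either other pseudocount and 45 of 47 with either other scaling. No paired analysis by replicate number was possible because each group has 1 sample; the age term of the reported limma fit pairs the sides within each age.

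Depth is unknown, and values rounded to 0.01 RPKM bear on low genes such as Oas2, Oas3, Isg20 and the interferon genes. Every contralateral difference of the ages rests on 2 libraries.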

Other observations

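Of the 25 genes at least 2-fold higher in the contralateral library of 21 months than in that of 13 months, those that are no members were looked at after their values were seen. Igkc, the immunoglobulin kappa constant gene, was highest, with 27.7 RPKM at 21 months and 2.55 RPKM at 13 months, and Igj, the joining chain gene of plasma cells, had 5.40 and 1.13 RPKM. Cd74, the chaperone of MHC class II, had 39.5 and 17.6 RPKM, and the class II gene RT1-Da 5.31 and 1.93 RPKM. Slfn3 (7.19 and 3.05 RPKM) and Gbp1 (2.02 and 0.50 RPKM) belong to families that interferon induces. Cga, a pituitary hormone subunit gene, had 4.88 and 1.48 RPKM.

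Tested genes outside the 49 were also described by their promoters. Of 257 such genes with an ISRE core 28 were at least 2-fold higher ipsilaterally at 21 months (10.9%) and 40 at 13 months (15.6%). Of 8713 without the core 466 were so at 21 months (5.35%) and 579 at 13 months (6.65%). For the ages on the contralateral side the shares were as follows: 40.1% of genes with the core and 40.3% without it were higher at 21 months.

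Among the members themselves, the 25 tested ones with the core had a median contralateral log2 ratio of 21 to 13 months of 0.62, and the 12 without it 0.49. The side ratio had a median of 0.82 with the core and 0.97 without it at 21 months, and of 1.41 with it and 1.28 without it at 13 months.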
